A study of Mus musculus with 24 samples.

Results

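Polycomb repressive complex 2 (PRC2) was described here through 10 genes taken by symbol from the deposited count tables: the core subunits Suz12, Eed, Ezh1 and Ezh2, the histone-binding subunits Rbbp4 and Rbbp7, and the accessory subunits Jarid2, Mtf2, Phf19 and Aebp2. All 10 were among the 55254 genes of the tables and all 10 passed the filter on low counts in every fit. RNA had been sequenced from sorted nuclei of the hippocampus in 24 libraries, and the mice were C57BL/6N males of 6 months. Nuclei that bind an antibody to NeuN, the neuronal splicing factor encoded by Rbfox3, form the NeuN+ fraction, and those that do not form the NeuN- fraction of glial and other non-neuronal cells. Each fraction held 3 replicate libraries of 4 genotypes: wild type (WT), Mutyh-/- and Ogg1-/- mice, which lack 1 of the DNA glycosylases Mutyh and Ogg1, and double knockout mice (DKO) obtained by crossing both lines. The study also mapped Suz12 binding and histone marks in such nuclei, which were not analysed here. Nuclei of several animals of a genotype were pooled, and the labels do not say whether replicates were separate pools. The study's statistics section gives at least 3 independent biological replicates for its data in general, without naming these libraries. P-values here measure the spread between these libraries, which may be technical.

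PRC2 places methyl groups on lysine 27 of histone H3, a mark that keeps developmental regulators silent. Ezh2 or its paralog Ezh1 carries the catalytic domain, Suz12 is the scaffold, and Eed reads the finished mark and stimulates the enzyme. Rbbp4 and Rbbp7 are WD40-repeat histone chaperones that also belong to other complexes. Accessory subunits divide the complex into PRC2.1, with a Polycomb-like protein such as Mtf2 or Phf19, and PRC2.2, with Jarid2 and Aebp2. Ezh2 is best known from dividing and progenitor cells and Ezh1 from cells that have left the cycle, neurons among them.

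The promoters of 2 pairs of genes are shown because the members of each pair differed most in their balance between NeuN+ and NeuN- nuclei: the catalytic paralogs Ezh1 and Ezh2, and the Polycomb-like paralogs Mtf2 and Phf19. Each runs from 250 bases before to 50 bases after a RefSeq start site on build GRCm38.p6, 5′ to 3′ on the gene's strand. Capitals mark E2F letters (TTTGGCGC or TTTCGCGC) and CCAAT boxes (CCAAT), searched on both strands. The minus-strand Ezh1 window is chr11:101226414-101226713, that of Ezh2, also minus, is chr6:47594981-47595280, the first of 2 Mtf2 starts, on the plus strand, is chr5:108065424-108065723, and the minus-strand Phf19 window is chr2:34913927-34914226.
Ezh1: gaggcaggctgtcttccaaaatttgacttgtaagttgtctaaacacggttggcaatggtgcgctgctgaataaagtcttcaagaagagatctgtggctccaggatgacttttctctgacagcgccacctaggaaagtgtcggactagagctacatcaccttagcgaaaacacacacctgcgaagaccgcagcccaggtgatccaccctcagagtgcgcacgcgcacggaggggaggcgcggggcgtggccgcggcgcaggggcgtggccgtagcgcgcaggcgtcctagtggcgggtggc
Ezh2: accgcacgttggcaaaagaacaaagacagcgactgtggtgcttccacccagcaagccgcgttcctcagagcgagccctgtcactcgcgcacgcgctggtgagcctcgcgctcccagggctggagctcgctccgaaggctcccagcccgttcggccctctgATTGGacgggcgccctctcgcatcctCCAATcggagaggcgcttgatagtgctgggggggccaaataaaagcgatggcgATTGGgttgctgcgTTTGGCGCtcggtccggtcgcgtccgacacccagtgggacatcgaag
Mtf2: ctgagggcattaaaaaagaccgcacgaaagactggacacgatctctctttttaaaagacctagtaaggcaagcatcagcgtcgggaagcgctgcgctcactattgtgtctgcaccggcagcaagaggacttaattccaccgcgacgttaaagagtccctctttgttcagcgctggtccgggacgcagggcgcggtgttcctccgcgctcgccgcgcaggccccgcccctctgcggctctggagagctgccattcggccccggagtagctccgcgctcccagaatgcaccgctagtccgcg
Phf19: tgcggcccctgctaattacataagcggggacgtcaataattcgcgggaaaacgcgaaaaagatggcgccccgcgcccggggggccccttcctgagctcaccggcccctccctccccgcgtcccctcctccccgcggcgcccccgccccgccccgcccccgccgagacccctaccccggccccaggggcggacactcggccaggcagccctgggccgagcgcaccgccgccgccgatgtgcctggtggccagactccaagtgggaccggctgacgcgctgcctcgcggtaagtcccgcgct
Ezh2 held 1 match to the E2F letters, at base 4 after the start, and 3 CCAAT boxes, whereas the other windows printed held neither motif. The E2F letters occurred in 0.813% and CCAAT in 37.4% of the 32851 promoter windows of the same length, and the E2F letters were in no other window of the 10 genes, for which 14 start sites were listed. The windows printed are rich in CpG: Ezh1 had 23, Ezh2 31, Mtf2 30 and Phf19 38, against a median of 7 over all windows. The second Mtf2 window, not printed, had 2 CpG and 3 CCAAT boxes. CCAAT also occurred in windows of Suz12, Eed, Rbbp4, Rbbp7, Jarid2 and Aebp2. A match is a description of letters, not a binding site.

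The main difference in PRC2 transcripts lay between the cell fractions. In WT nuclei, Ezh2, Eed, Aebp2 and Phf19 were lower in NeuN+ than in NeuN-, while Mtf2 and Rbbp7 were higher, and the other 4 genes differed by less than the fold threshold. Beside this, in none of the 6 comparisons of a knockout with WT was a PRC2 gene called. A gene was called where edgeR's quasi-likelihood test gave a Benjamini-Hochberg adjusted p under 0.05, over all genes tested, and the absolute log2 fold change was above 0.5.

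Depth and sort purity set the frame for these values. Total counts per library ran from 56563586 to 96192142, and values below are in CPM, a gene's counts relative to the effective library size, which is the total times its TMM factor in the fit of 24 libraries. These factors were 0.897 to 0.952 for NeuN+ libraries and 1.04 to 1.13 for NeuN- libraries. Rbfox3 stood at 1459 ± 26.6 CPM in NeuN+ and 90.0 ± 8.81 CPM in NeuN- libraries of WT (SD, n = 3 each). Over all genotypes, the summed level of 5 oligodendrocyte markers in NeuN+ was 2.19% of that in NeuN-, that of 3 oligodendrocyte precursor markers 3.70%, that of 6 astrocyte markers 8.56% and that of 5 microglial markers 16.6%, and the summed level of 8 neuronal markers in NeuN- was 7.27% of that in NeuN+ (ratios of medians). By the same measure, 3 endothelial markers in NeuN+ reached 9.23% of their NeuN- level, and 5 choroid plexus markers 49.2%. A sum does not stand for each of its markers. The microglial markers Csf1r and Tmem119 were 64.0-fold and 288-fold lower in NeuN+ of WT. Of the choroid plexus markers in Mutyh-/-, Kl was called 2.92-fold higher in NeuN+, and Ttr and Folr1 9.81-fold and 7.08-fold lower. The choroid plexus sum was uneven between NeuN- libraries, with 14.0 CPM as the lowest and 221 CPM as the highest value. Its NeuN+ values lay between 17.1 and 28.5 CPM. The fractions were sequenced on different lanes, so the lane and the fraction cannot be told apart. Ogg1 RNA was at 3.29 ± 0.502 CPM in WT NeuN+ and at 3.46 ± 0.227 CPM in the NeuN+ libraries labelled Ogg1-/-. Mutyh RNA was at 1.23 ± 0.0718 CPM in WT NeuN+ and higher, not lower, in the libraries labelled Mutyh-/- (10.9 ± 0.901 CPM) and DKO (9.94 ± 1.95 CPM, SD, n = 3 each), so the counts over these whole genes do not check the labels, and knockout groups are named below as labelled. In these bulk samples, fewer cells of a type and less RNA per nucleus cannot be told apart.

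**Figure D1:**
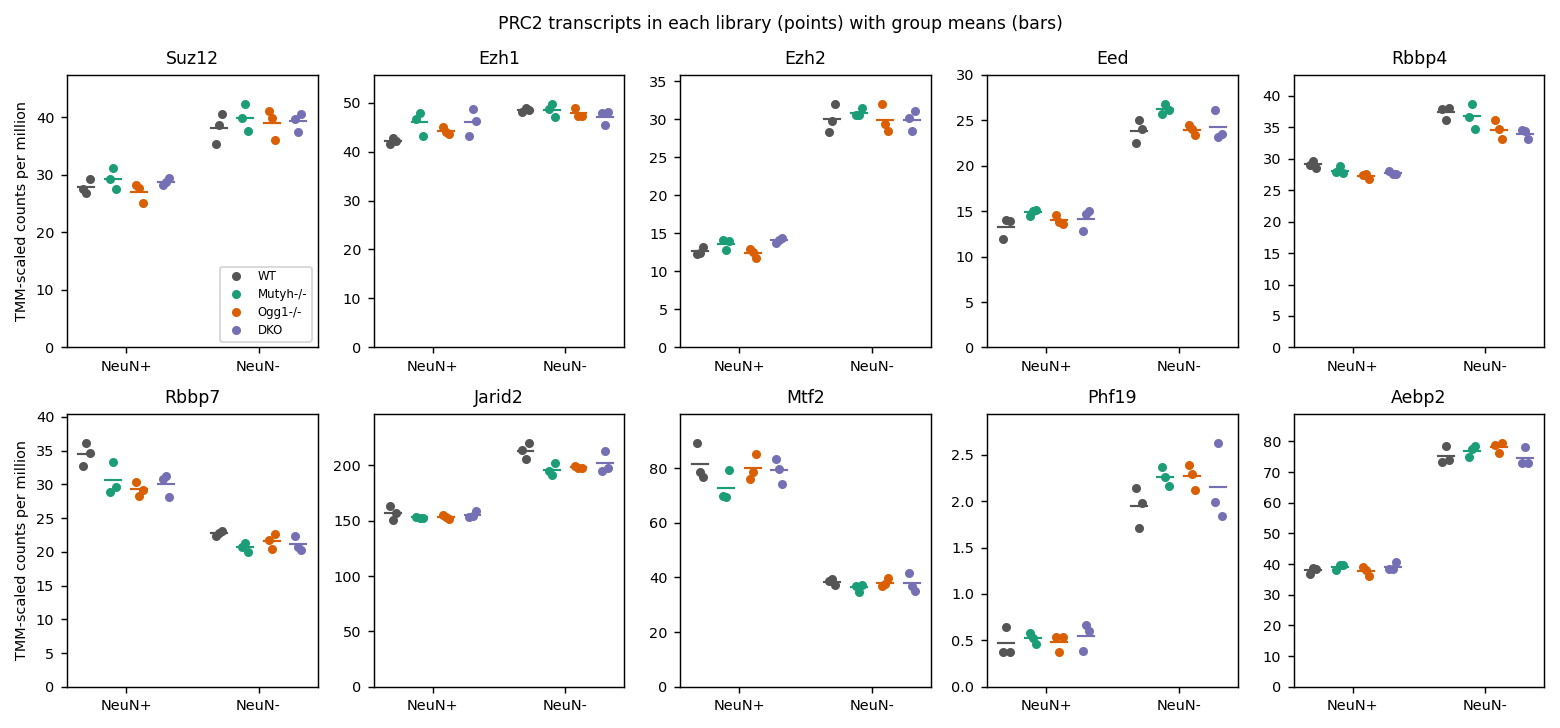
CPM (vertical axes, from 0, TMM-scaled) of the 10 PRC2 genes in each of the 24 libraries, by sorted fraction (horizontal) and genotype (colour), with points for libraries and bars for group means of 3. Ezh2, Eed, Phf19 and Aebp2 sit lower in every NeuN+ library than in any NeuN- library, Mtf2 and Rbbp7 higher, and the genotypes of a fraction lie close together.

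Levels of different genes were compared per length, as CPM divided by the kilobases of exon sequence in the annotation (FPKM). In WT NeuN+ nuclei the order was Jarid2 at 16.2 ± 0.663 FPKM, Mtf2 at 14.3 ± 1.19, Rbbp7 at 11.9 ± 0.577, Ezh1 at 5.67 ± 0.0795, Suz12 at 5.64 ± 0.257, Aebp2 at 3.85 ± 0.111, Eed at 3.47 ± 0.307, Rbbp4 at 3.32 ± 0.0571, Ezh2 at 1.89 ± 0.0714 and Phf19 at 0.0927 ± 0.0311 FPKM (SD, n = 3). The libraries of Jarid2 and Mtf2, of Ezh1 and Suz12, and of Eed and Rbbp4 overlapped, so the order inside these pairs was not resolved. In WT NeuN- nuclei Jarid2 again led at 21.9 ± 0.751 FPKM and Phf19 was again last at 0.386 ± 0.0432, with the other 8 genes between 4.28 and 7.82 FPKM. There Rbbp7, Suz12 and Aebp2 overlapped each other, as did Mtf2 with Ezh1, Ezh1 with Eed, and Ezh2 with Rbbp4. Mtf2 was the second highest of the 10 in NeuN+ and the fifth in NeuN-, whereas Ezh2 was near the bottom of both orders.

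The first comparison asked which PRC2 subunits differ between neuronal and non-neuronal nuclei. In WT, 6 of the 10 genes were called, 2 higher and 4 lower in NeuN+. All 10 had an adjusted p under 0.05 in edgeR's quasi-likelihood test, as had 24259 of the 33523 genes tested. Of all genes tested, 29.5% were called higher in NeuN+ and 29.5% higher in NeuN-, so a call between these fractions was common. The median log2 difference, NeuN+ minus NeuN-, was -0.45 over the 10 genes and -0.01 over all genes. The count was also 6 in Mutyh-/-, with 2 higher and 4 lower (29.8% and 30.2% of all genes), in Ogg1-/-, with 1 higher and 5 lower (29.7% and 30.3%), and in DKO, with 2 higher and 4 lower (28.9% and 31.6%). When libraries were scaled by total count only, the counts became 1 higher and 7 lower in every genotype. Suz12, Rbbp4 and Jarid2 were then called lower in every genotype (-0.69, -0.60 and -0.68 in WT), and Rbbp7 was not called. That scaling moved the median of all genes to between -0.32 and -0.25, and of the genes called in WT it put 39.8% higher in NeuN+ in place of 50%.

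**Figure D2:**
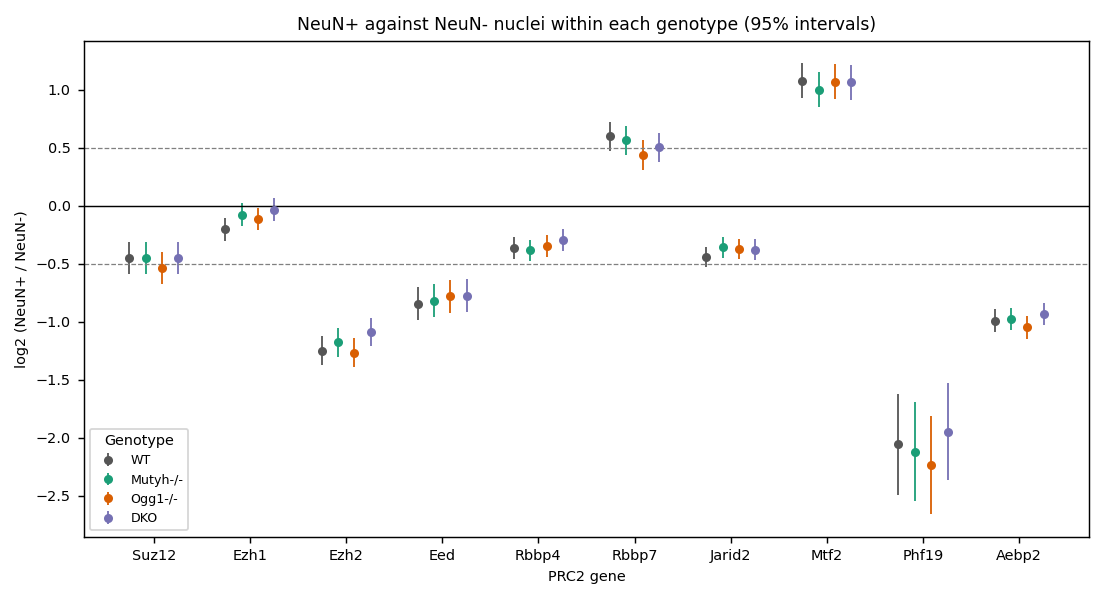
Log2 difference between NeuN+ and NeuN- (vertical axis) for each PRC2 gene in each genotype (colour), with points for estimates of edgeR's fit of 24 libraries and bars for 95% confidence intervals. Dashed lines mark the fold threshold of 0.5. Phf19 and Ezh2 are lowest and Mtf2 is highest in all 4 genotypes.

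The scaffold Suz12, without which the complex does not assemble, was lower in NeuN+. Its WT libraries held 27.5, 26.9 and 29.3 CPM in NeuN+ and 35.3, 38.6 and 40.6 CPM in NeuN-, in order of replicate. All 3 NeuN+ values lay below all 3 NeuN- values, and the log2 difference was -0.45 (SE 0.067, adjusted p = 2.54e-06), under the fold threshold. In Ogg1-/- the difference was -0.53 and passed it. That call sat at the threshold: it was -0.48 without Ogg1-/- NeuN+ replicate 3 and -0.49 without Ogg1-/- NeuN- replicate 1, and in WT it was -0.51 without WT NeuN- replicate 1.

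Eed, the reader of trimethylated lysine 27, showed a larger gap than Suz12. WT NeuN+ libraries held 11.9, 14.1 and 13.9 CPM and WT NeuN- libraries 22.6, 25.01 and 24.1 CPM. The fractions did not overlap in any genotype, and Eed was 1.80-fold higher in WT NeuN- (log2 difference -0.84, SE 0.069, adjusted p = 1.65e-10). Over the 4 genotypes the difference ran from -0.84 to -0.78.

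The catalytic paralogs parted between the fractions. Ezh2 was at 12.3, 12.4 and 13.2 CPM in WT NeuN+ and at 28.3, 29.8 and 32.0 CPM in WT NeuN-. This was 2.38-fold more in NeuN- (log2 difference -1.25, SE 0.060, adjusted p = 1.16e-14), with no overlap of libraries in any genotype. Ezh1 was at 41.6, 42.8 and 42.1 CPM in WT NeuN+ and at 48.0, 48.9 and 48.5 CPM in WT NeuN-, a difference of -0.20 (SE 0.047, adjusted p = 0.000666) that stayed under the fold threshold although the libraries did not overlap. In Mutyh-/- and DKO the Ezh1 libraries of the 2 fractions overlapped, with differences of -0.08 and -0.03 (adjusted p = 0.144 and 0.527).

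With these levels, the number of Ezh1 counts per Ezh2 count was 3.34 ± 0.134 in WT NeuN+ and 1.62 ± 0.0915 in WT NeuN- (SD, n = 3). Corrected for exon length, the ratios were 3.00 ± 0.1201 and 1.45 ± 0.0821. Over all genotypes the count ratio lay between 3.10 and 3.75 in the 12 NeuN+ libraries and between 1.498 and 1.69 in the 12 NeuN- libraries. Ezh1 exceeded Ezh2 in both fractions, per length as well as by count.

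Ezh2 is also a transcript of dividing cells, and markers of such cells were read beside it. The summed level of 8 markers of dividing cells was 13.0 to 15.4 CPM over the NeuN+ libraries and 16.8 to 22.7 CPM over the NeuN- libraries, below Ezh2 alone in NeuN- (28.3 to 32.0 CPM), and none of the 8 was at 0 in all libraries of a group. In WT, 7 of the 8 were called lower in NeuN+ and 1, Mki67, was called higher (1.74-fold), beside 29.5% of all genes in each direction. The median log2 difference over the list was -1.47. Top2a was at 0.0924 ± 0.00849 CPM in WT NeuN+ against 2.05 ± 0.401 CPM in WT NeuN- (SD, n = 3). Their part in the Ezh2 difference was not tested. Ezh2 in WT NeuN+ stood at 42.0% of its NeuN- level, Eed at 55.7%, Aebp2 at 50.4% and Phf19 at 24.02%.

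The histone chaperones went in opposite directions. Rbbp7, encoded on the X chromosome, was at 32.8, 36.1 and 34.7 CPM in WT NeuN+ and at 22.4, 22.7 and 23.1 CPM in WT NeuN-, 1.52-fold higher in NeuN+ (log2 difference 0.60, SE 0.061, adjusted p = 6.46e-09). Rbbp4 was at 29.1, 29.6 and 28.6 CPM in WT NeuN+ and at 38.0, 36.2 and 38.1 CPM in WT NeuN-, a difference of -0.36 (SE 0.045, adjusted p = 2.09e-07) under the fold threshold. Neither gene's libraries overlapped between the fractions. Rbbp4 counts per Rbbp7 count were 0.843 ± 0.0376 in WT NeuN+ and 1.64 ± 0.0517 in WT NeuN-, so Rbbp7 had more counts in NeuN+ and Rbbp4 in NeuN-, whereas per exon length Rbbp7 exceeded Rbbp4 in both (ratios of 0.280 and 0.547).

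Beside 0.60 in WT, the Rbbp7 difference was 0.57 in Mutyh-/-, 0.50 in DKO and 0.44 in Ogg1-/-, the last under the fold threshold. In DKO the value lay on the threshold and fell to 0.49 without DKO NeuN+ replicate 1, 0.48 without DKO NeuN+ replicate 2, 0.49 without DKO NeuN- replicate 2 and 0.48 without DKO NeuN- replicate 3. With total-count scaling it was under 0.5 in all genotypes (0.37 in WT). The change of this difference against WT was not called in any knockout, and is given with the interactions below.

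Among the accessory subunits, those of PRC2.1 differed from each other. Mtf2, which recruits the complex to CpG islands, was at 89.2, 78.4 and 76.6 CPM in WT NeuN+ and at 38.6, 39.6 and 37.3 CPM in WT NeuN-, 2.11-fold higher in NeuN+ (log2 difference 1.08, SE 0.073, adjusted p = 5.55e-12). Phf19, its paralog, was at 0.373, 0.648 and 0.380 CPM in WT NeuN+ and at 2.15, 1.71 and 1.98 CPM in WT NeuN-, 4.16-fold lower in NeuN+ (log2 difference -2.06, SE 0.209, adjusted p = 7.88e-09). Phf19 rested on 23 to 46 counts per NeuN+ library and 124 to 214 per NeuN- library, the fewest of the 10 genes. Neither gene overlapped between fractions in any genotype.

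Jarid2 and Aebp2, the subunits of PRC2.2, were both lower in NeuN+. Aebp2, a zinc-finger protein that stabilises the complex, was at 36.6, 38.6 and 38.5 CPM in WT NeuN+ and at 73.4, 78.6 and 73.8 CPM in WT NeuN-, a 1.99-fold difference (log2 -0.99, SE 0.047, adjusted p = 7.76e-15). Jarid2, which lacks the demethylase activity of its family and binds the complex at its targets, was at 163, 150.4 and 157 CPM in WT NeuN+ and at 214, 206 and 220 CPM in WT NeuN-. Its difference of -0.44 (SE 0.043, adjusted p = 3.19e-09) was under the fold threshold, with no overlap of libraries. In none of the 4 genotypes did the fractions overlap for Aebp2 or Jarid2.

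The split held across genotypes for every gene but Ezh1. The share of all genes that separate in this way was not computed. Differences between the fractions were common, with 24259 of 33523 genes at an adjusted p under 0.05 in WT by edgeR's quasi-likelihood test. Suz12 was at most 31.1 CPM in the 12 NeuN+ libraries and at least 35.3 CPM in the 12 NeuN- libraries, Eed at most 15.1 and at least 22.6 CPM, and Ezh2 at most 14.4 and at least 28.3 CPM. Rbbp4 was at most 29.6 CPM in NeuN+ and at least 33.1 CPM in NeuN-, Jarid2 at most 163 and at least 192 CPM, Aebp2 at most 40.7 and at least 72.8 CPM and Phf19 at most 0.664 and at least 1.71 CPM. In the other direction, Mtf2 was at least 69.3 CPM in NeuN+ and at most 41.7 CPM in NeuN-, and Rbbp7 at least 28.1 and at most 23.1 CPM. Ezh1 ranged from 41.6 to 48.6 CPM in NeuN+ and from 45.4 to 49.7 CPM in NeuN-, so its ranges overlapped.

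**Figure D3:**
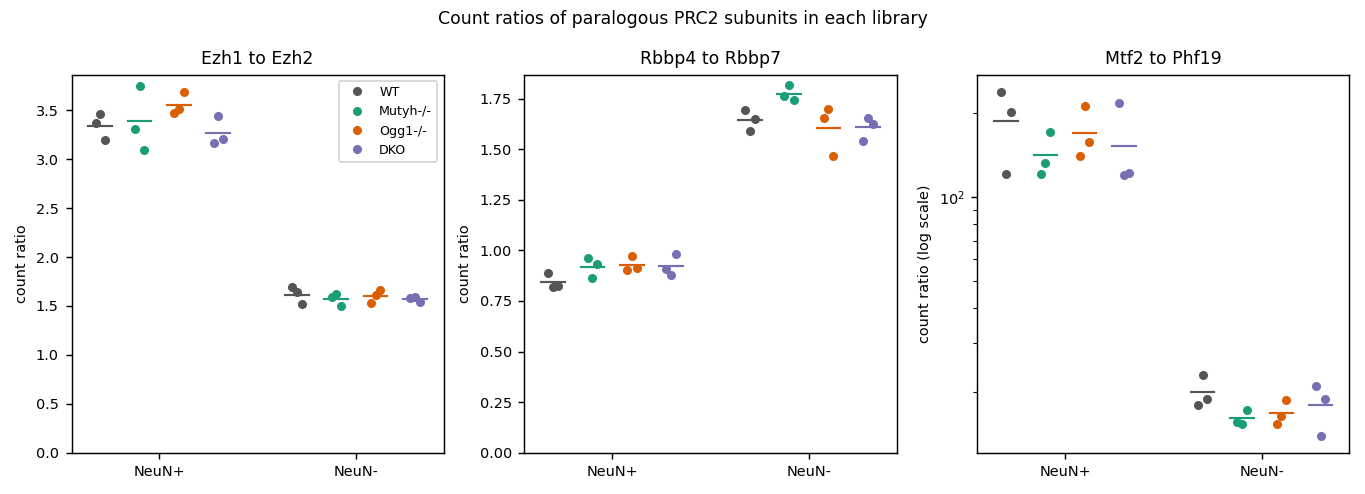
Counts of 1 PRC2 paralog per count of the other (vertical axes, logarithmic for Mtf2 to Phf19) in each library, by fraction and genotype, with points for libraries and bars for group means of 3. NeuN+ and NeuN- libraries separate in all 3 ratios: Ezh1 to Ezh2 at 3.10 to 3.75 against 1.498 to 1.69, Rbbp4 to Rbbp7 at 0.818 to 0.983 against 1.46 to 1.82, and Mtf2 to Phf19 at 120 to 239 against 14.0 to 23.1.

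The second comparison asked whether loss of a glycosylase changed PRC2 transcripts. Per comparison with WT, edgeR's quasi-likelihood test called 0 of the 10 genes in Mutyh-/- NeuN+, where 0.428% of all genes tested were called, 0 in Ogg1-/- NeuN+ (0.574%), 0 in DKO NeuN+ (0.302%), 0 in Mutyh-/- NeuN- (0.273%), 0 in Ogg1-/- NeuN- (0.229%) and 0 in DKO NeuN- (0.116%). A count of 0 of 10 is near these shares. DESeq2 called 0 in each as well, giving Phf19 no adjusted p in NeuN+. With an unadjusted p under 0.05 there were, in the same order, 3, 2, 2, 3, 2 and 1 of the 10 genes, against 18.7%, 12.3%, 13.5%, 13.7%, 11.8% and 12.4% of all genes.

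The estimates were small and their intervals narrow for most members. Without Phf19, the 54 log2 fold changes of 9 genes lay between -0.25 and 0.17, and their 95% intervals, not adjusted for the number of comparisons, reached at most from -0.40 to 0.33, a 1.32-fold fall or a 1.26-fold rise. Phf19, with few counts, had intervals from -0.58 to 0.82. Suz12, whose binding the study followed, had estimates from -0.07 to 0.07 with intervals from -0.20 to 0.21. Its libraries overlapped those of WT in all 6 comparisons.

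The knockout and WT libraries of a fraction did not overlap for 2 genes in Mutyh-/- NeuN+, where 21.6% of all genes did not, 3 in Ogg1-/- NeuN+ (20.1%), 4 in DKO NeuN+ (17.5%), 4 in Mutyh-/- NeuN- (19.2%), 2 in Ogg1-/- NeuN- (19.4%) and 1 in DKO NeuN- (16.8%). With 10 genes, counts of 1 to 4 are coarse beside these shares. The 3 comparisons within a fraction share their WT libraries, so a gene that lies apart in several of them is not several independent observations.

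**Figure D4:**
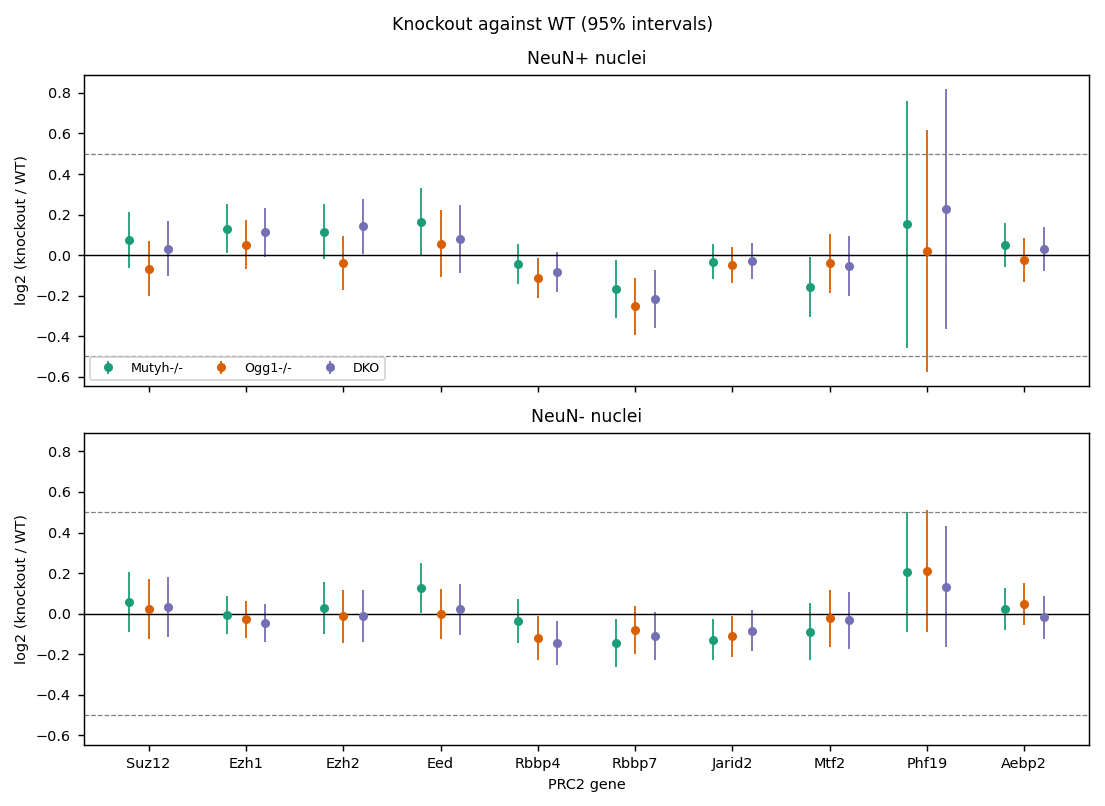
Log2 fold change of each knockout against WT (vertical axis) for the 10 PRC2 genes, in NeuN+ (upper panel) and NeuN- (lower panel), with points for edgeR estimates and bars for 95% confidence intervals. Dashed lines mark the fold threshold of 0.5, which no estimate reaches, and Phf19 in NeuN+ has the widest intervals.

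Rbbp7 had the smallest p of any member. Its NeuN+ libraries held 32.8, 36.1 and 34.7 CPM in WT, 28.9, 33.3 and 29.7 in Mutyh-/-, 30.4, 28.3 and 29.2 in Ogg1-/- and 30.8, 31.3 and 28.1 in DKO. All Ogg1-/- and DKO libraries lay below all WT libraries, and 1 Mutyh-/- library lay inside the WT range. In Ogg1-/- NeuN+ the log2 fold change was -0.25 (SE 0.067, 95% interval -0.40 to -0.11), with an adjusted p of 0.0901 in edgeR's quasi-likelihood test and of 0.0235 in DESeq2, and with only the libraries of these 2 genotypes in edgeR's fit it was -0.26 (adjusted p = 0.0254), under the fold threshold in all 3. Over all alternatives the adjusted p ran from 0.0235 to 0.350. It was -0.22 in DKO (adjusted p = 0.173) and -0.17 in Mutyh-/- (adjusted p = 0.199), and in NeuN- it was -0.15, -0.08 and -0.11 in Mutyh-/-, Ogg1-/- and DKO. Leaving out 1 library of WT or Ogg1-/- NeuN+ at a time kept the Ogg1-/- NeuN+ estimate between -0.29 and -0.22, with edgeR's adjusted p between 0.0847 and 0.350.

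Rbbp4 was lower in all 6 estimates as well. In NeuN- its libraries held 38.0, 36.2 and 38.1 CPM in WT, 36.6, 38.7 and 34.8 in Mutyh-/-, 36.1, 34.7 and 33.1 in Ogg1-/- and 34.5, 34.3 and 33.1 in DKO. Those of Ogg1-/- and DKO lay below those of WT, with log2 fold changes of -0.12 and -0.15 (edgeR's adjusted p = 0.366 and 0.296), and in NeuN+ the values were -0.11 and -0.08 (adjusted p = 0.326 and 0.453). Rbbp4 lies on chromosome 4, 12.5 Mb from Mutyh, and was at -0.04 in both fractions of Mutyh-/-. Ezh2 and Aebp2 share chromosome 6 with Ogg1, at 65.7 and 27.3 Mb from it.

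The catalytic subunits showed estimates of both signs. In NeuN+, Ezh1 held 41.6, 42.8 and 42.1 CPM in WT, 46.7, 47.9 and 43.3 CPM in Mutyh-/-, 45.1, 44.1 and 43.5 CPM in Ogg1-/- and 43.2, 48.6 and 46.2 CPM in DKO, so each knockout group lay above WT. The log2 fold changes were 0.13, 0.05 and 0.11 (edgeR's adjusted p = 0.239, 0.782 and 0.411), and in NeuN- they were -0.01, -0.03 and -0.05. Ezh2 was 0.12, -0.04 and 0.14 in NeuN+ of Mutyh-/-, Ogg1-/- and DKO, with the DKO libraries (13.7, 14.1 and 14.4 CPM) above those of WT (12.3, 12.4 and 13.2 CPM) at an adjusted p of 0.347 in edgeR's test. In NeuN- its estimates lay between -0.01 and 0.03.

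Eed in Mutyh-/- lay above WT in both fractions. NeuN+ libraries held 14.5, 15.01 and 15.1 CPM against 11.9, 14.1 and 13.9 in WT, and NeuN- libraries 25.7, 26.8 and 26.1 CPM against 22.6, 25.01 and 24.1. The log2 fold changes were 0.17 and 0.13 (edgeR's adjusted p = 0.269 and 0.348). In Ogg1-/- and DKO the libraries of Eed overlapped those of WT, with estimates up to 0.08 on the log2 scale.

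Jarid2 in NeuN- held 214, 206 and 220 CPM in WT, 195, 192 and 202 in Mutyh-/-, 199.7, 198 and 198 in Ogg1-/- and 195, 213 and 198 in DKO. The Mutyh-/- and Ogg1-/- libraries lay below WT, with log2 fold changes of -0.13 and -0.11 (edgeR's adjusted p = 0.266 and 0.371), and DKO overlapped WT at -0.08. In the same NeuN- libraries the summed level of 6 astrocyte markers was 2789 to 3314 CPM in WT and 3247 to 4112 CPM in Ogg1-/-, and that of 5 oligodendrocyte markers was 5911 to 6645 CPM in WT and 5045 to 5667 CPM in Ogg1-/-. In DKO NeuN- the astrocyte sum was 3468 to 3628 CPM and the oligodendrocyte sum 4501 to 5578 CPM, both apart from WT, whereas in Mutyh-/- NeuN- they were 2853 to 3745 and 5505 to 6765 CPM and overlapped WT. All 6 astrocyte markers were higher and all 5 oligodendrocyte markers lower than WT in both Ogg1-/- and DKO (median log2 fold changes 0.25 and -0.22 in each), of which edgeR called 1, the astrocyte enzyme Aldh1l1 in Ogg1-/- (0.52, adjusted p = 0.0483). The 8 neuronal markers were all lower in NeuN- of the 3 knockouts, with medians of -0.16, -0.28 and -0.30 in Mutyh-/-, Ogg1-/- and DKO and none called. Choroid plexus markers differed between NeuN- replicates of a genotype. Their summed level was 40.1, 43.0 and 67.0 CPM for the WT replicates and 29.5, 24.8 and 24.9 CPM for those of Mutyh-/-. Ogg1-/- replicates held 15.6, 97.6 and 101 CPM, and DKO replicates 14.0, 69.3 and 221 CPM. The part of these markers in the Rbbp4 and Jarid2 values of NeuN- was not tested. Mtf2 was lower in all 6 estimates, from -0.16 in Mutyh-/- NeuN+ to -0.02, and Aebp2 ran from -0.02 to 0.05.

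Phf19 was higher than WT in all 6 estimates, from 0.02 to 0.23 on the log2 scale, none with an unadjusted p under 0.05. In NeuN- it held 2.15, 1.71 and 1.98 CPM in WT, 2.36, 2.26 and 2.16 in Mutyh-/-, 2.39, 2.29 and 2.12 in Ogg1-/- and 1.99, 2.63 and 1.84 in DKO. The Mutyh-/- libraries lay just above those of WT and the other 2 groups overlapped them. The Mutyh-/- estimate was 0.21 (SE 0.136, edgeR's adjusted p = 0.537).

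The third comparison asked whether a knockout acted differently on PRC2 genes in the 2 fractions, as the log2 fold change in NeuN+ minus that in NeuN-. edgeR's quasi-likelihood test gave an adjusted p under 0.05 for 0 of the 10 genes in Mutyh-/- (0.0209% of all genes), 0 in Ogg1-/- (0.0537%) and 0 in DKO (0.0567%), and DESeq2 also for 0, with no adjusted p for Phf19. An unadjusted p under 0.05 in edgeR's test was found for 0, 0 and 1 of the 10 genes, against 8.58%, 7.09% and 9.4% of all genes. A count of 1 of 10 is near the last share. The 1 gene was Ezh1 in DKO, at 0.17 (SE 0.067, adjusted p = 0.445), and Ezh2 in DKO stood beside it at 0.16 (SE 0.084, adjusted p = 0.569). For Rbbp7 the interactions were -0.04, -0.16 and -0.10 in Mutyh-/-, Ogg1-/- and DKO (adjusted p = 0.959, 0.735 and 0.773).

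Other genes of the Polycomb system gave the setting for these values. Of 5 further accessory genes of PRC2 (the sixth of that list was not analysed here), 2 were called between the WT fractions by edgeR: Epop, an elongin-binding subunit of PRC2.1, was 2.06-fold higher in NeuN+, and Skida1 was 1.44-fold higher. Of 26 genes of PRC1, the complex that ubiquitinates histone H2A and reads the PRC2 mark, 4 were called higher and 7 lower in WT NeuN+, beside 29.5% of all genes in each direction. The autism-linked Auts2 was 2.37-fold and Pcgf6 2.21-fold higher, and Cbx7, which binds methylated lysine 27, was 1.92-fold and Bcor 2.21-fold lower. Of 3 genes of the family that removes the mark, Kdm6a was called 1.81-fold lower in NeuN+.

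The list medians were small beside these single genes. In WT the median log2 difference was -0.02 over the 26 PRC1 genes, with 8 genes at an adjusted p under 0.05 higher and 9 lower, and -0.01 over all genes. None of 6 genes of the PR-DUB deubiquitinase and none of 12 genes of the complexes that methylate lysine 4 of histone H3 was called between the WT fractions by edgeR or by DESeq2. Of all genes, edgeR called 29.5% in each direction. An unadjusted p under 0.05 in edgeR's test was found for 3 of the 6 and 7 of the 12, beside 74.3% of all genes. Of 14 genes of NuRD and CAF-1, which also contain Rbbp4 or Rbbp7, 2 were called higher and 2 lower, beside the same 29.5% in each direction. The chromatin remodellers Chd5 and Chd3 were higher in NeuN+ by 2.32 and 1.74 on the log2 scale, and Gatad2a and the replication-linked Chaf1b were 2.50-fold and 8.61-fold lower.

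Transcripts that PRC2 usually keeps silent were rare in both fractions. Of 62 developmental regulators listed as Polycomb targets, 19 passed the filter in the fit of 24 libraries and 4 in that of NeuN+, and the summed level of the 62 was 1.99 to 3.99 CPM in NeuN+ and 8.41 to 13.5 CPM in NeuN-. The 13.5 CPM came from DKO NeuN- replicate 3, the library with the highest choroid plexus sum (221 CPM). Ogg1-/- NeuN- replicate 2, with a choroid plexus sum of 97.6 CPM, held 8.99 CPM of the 62. A relation between these sums was not tested. Among the 19, 1 was called higher in WT NeuN+ and 14 lower, with a median of -2.79, beside 29.5% of all genes in each direction. The T-box gene Tbx2 was 8.91-fold lower in NeuN+, Tbx3 had 2 counts in each WT NeuN+ library against 93 to 126 in those of NeuN-, and Pax2 was 3.49-fold higher at 0.875 ± 0.287 CPM (SD, n = 3). Because the filter keeps genes that are high in either fraction, the 19 do not stand for all 62. Only 4 passed it in NeuN+ libraries alone, so the direction of most of the 19 was largely set by the filter. Their counts and median are a description, not a test of a difference between fractions.

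In the knockouts these lists held few calls. Of the 66 tested genes of the 6 lists of chromatin complexes, edgeR called 0 in each of the 6 comparisons with WT, with an unadjusted p under 0.05 for 15, 6 and 8 genes in NeuN+ and 8, 4 and 5 in NeuN- of Mutyh-/-, Ogg1-/- and DKO. These were 22.7%, 9.09% and 12.1% of the 66 in NeuN+, beside 18.7%, 12.3% and 13.5% of all genes, and 12.1%, 6.06% and 7.58% in NeuN-, beside 13.7%, 11.8% and 12.4% of all genes. DESeq2 called 1 of them, Epop in DKO NeuN+ (log2 fold change -0.53, adjusted p = 0.110 in edgeR and 0.0413 in DESeq2), and 0 in the other 5 comparisons. Of the Polycomb targets, edgeR and DESeq2 called 0 of 4 in NeuN+ and 0 of 19 in NeuN-, with an unadjusted p under 0.05 for 1, 1 and 0 and for 1, 1 and 2 genes.

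The genes most like 4 core subunits were listed by Pearson's r of log2 CPM over the 24 libraries, as a description. The libraries form 2 fractions and share their depth scaling, so the step between fractions is part of every r. Most like Suz12 were Pnrc2 (0.984), Ythdf2 (0.982) and Lrch3 (0.982), and most like Eed were Gm2436 (0.991), Gm2446 (0.990) and Zc3h12a (0.990). Most like Ezh2 were Nod1 (0.995), the nonagouti gene (0.995) and Ppp4r1 (0.994). For Ezh1, which differed little between fractions, they were Gm16006 (0.919), Trabd (0.903) and Nbeal2 (0.893). At rank 100 of each order, r was still 0.969 for Suz12, 0.984 for Eed, 0.992 for Ezh2 and 0.822 for Ezh1.

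Some counts of PRC2 genes could include reads of a neighbour, since the strand setting of the counting was not given in the sources used here. On GRCm38 (GENCODE vM21), genes on the opposite strand share 9.1% of the exon bases of Rbbp4 with Gm26722 and 8.9% with Sync, 6.9% of Mtf2 with Tmed5, 6.8% of Eed with E230029C05Rik, 6.0% of Rbbp7 with Txlng, 3.6% of Suz12 with Gm26563 and 2.6% of Ezh2 with Gm26625. Ezh1, Jarid2, Phf19 and Aebp2 share none. Suz12 lies on chromosome 11 at 79993106 to 80034123 on the plus strand, Ezh1 on chromosome 11 at 101191115 to 101226463, Ezh2 on chromosome 6 at 47530139 to 47595341, and Eed on chromosome 7 at 89954654 to 89980983, the last 3 on the minus strand. Rbbp4 lies on chromosome 4 at 129307100 to 129335370 (minus) and Rbbp7 on chromosome X at 162760402 to 162779092 (plus). Jarid2 lies on chromosome 13 at 44729474 to 44921643 (plus), Aebp2 on chromosome 6 at 140622663 to 140678472 (plus), Mtf2 on chromosome 5 at 108065674 to 108109004 (plus) and Phf19 on chromosome 2 at 34893757 to 34914026 (minus).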

How the data were processed

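The deposited values were counts of properly aligned read pairs per gene, 1 table for NeuN+ and 1 for NeuN- nuclei, each with 12 libraries. Per the study's methods and the submitters' processing notes, the authors checked reads with FastQC 0.11.9, aligned them to GRCm38 with HISAT2 2.1.0 and SAMtools 1.10 and counted them with featureCounts on an Ensembl annotation in R 4.3.2, with edgeR 3.42.4 for normalisation. The strand setting of the counting was not given in the sources used here. Raw counts were not normalised before deposit, and columns left unused numbered 0.

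Genes were kept by edgeR's filterByExpr in 3 fits: NeuN+ (30132 genes), NeuN- (31863) and all 24 libraries (33523), the last for differences between fractions and interactions. TMM factors, edgeR 4.0.16 (R 4.3.3), its quasi-likelihood F test and Benjamini-Hochberg adjustment were used, with SE taken as the absolute log2 fold change over the square root of F. Calls needed an adjusted p under 0.05 and, except for interactions, an absolute log2 fold change above 0.5. CPM of the text use the TMM factors of the 24 libraries, and FPKM divide them by the exon bases of each gene in GENCODE vM21. The fits were tested on simulated data. Alternatives were DESeq2 1.42.0, other size factors, other filters and thresholds, a replicate block, fits of 2 genotypes and leaving out each library.

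The members and gene lists were chosen with earlier results of these data known. Genes named were the 10 members, Ogg1, Mutyh, Rbfox3, from each list up to 2 called genes per direction with the smallest adjusted p in a comparison, and the 3 genes most correlated with each of Suz12, Ezh1, Ezh2 and Eed. Epop in DKO was named after its value was seen, as the 1 gene of its count. Libraries held 56563586 to 96192142 counts, and the precision of a gene is given by its SE. No 2 libraries of the same group were identical within sampling noise, and libraries of different groups were not compared in this way.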

Additional observations from a re-analysis of the deposited data

How the results depend on the processing

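With a threshold of 1 in place of 0.5 on the log2 scale, 3 PRC2 genes were called between the fractions in WT, 3 in Mutyh-/-, 4 in Ogg1-/- and 3 in DKO, in place of 6. Over this and the other settings, all genes called in WT numbered 13841 to 20656, in place of 19761. The share of all genes at the threshold of 1 alone is not given here, so the fall is not read as a trait of the 10 genes. Leaving out each library gave 6 to 7 called PRC2 genes in WT, 5 to 6 in each of Ogg1-/- and DKO, and 6 to 6 for Mutyh-/-. It gave 0 to 0 in every comparison of a knockout with WT and every interaction. Of 1320 values of the 10 genes between genotypes or as interactions under the alternatives, 82 had another sign and 0 were called. Of 480 values between fractions, 1 had another sign (Ezh1 in DKO, 0.01 without DKO NeuN+ replicate 1) and 22 lay on the other side of the threshold. With at least 10 counts required in every library, Rbbp7 in DKO was at 0.47 and not called.

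Counts over all genes moved more, and the cause was not tested. Of all genes, 129, 173 and 91 were called in NeuN+ of Mutyh-/-, Ogg1-/- and DKO and 87, 73 and 37 in NeuN-. Other settings gave 113 to 625, 172 to 331, 89 to 252, 70 to 231, 73 to 179 and 10 to 178, and leaving out libraries gave 62 to 837, 70 to 164, 36 to 137, 31 to 435, 50 to 74 and 19 to 55. Interactions numbered 7, 18 and 19, other settings gave 7 to 81, 16 to 65 and 12 to 223, and leaving out libraries gave 2 to 95, 12 to 17 and 7 to 115. When replicate number entered as a block, counts of PRC2 genes stayed at 0 in each knockout comparison and interaction and at 6 between fractions, while all genes numbered 113, 235 and 171 in NeuN+, 83, 76 and 63 in NeuN-, and 31, 26 and 53 as interactions. Same-numbered libraries deviated together with r from 0.0107 to 0.292 between fractions and from -0.265 to 0.202 between genotypes. The study collected both fractions when sorting, but the labels do not say that numbers match across fractions. Of 12 NeuN+ libraries, 11 correlated best with the NeuN- library of their own number, so the fractions of a number may be paired. The main tests between fractions and of interactions did not use such pairs, whereas the block did. Depth limits Phf19 most, with 23 to 46 counts per NeuN+ library.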
